A study of Mus musculus with 9 samples.

Results

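Of the 3477 protein-coding genes in the expression table, 41 carry names of the lipid metabolism families examined here, and these were the members. The rule for a member used its gene name and no measured value, and it was written with earlier results of these data known. The names start with prefixes for fatty acid activation and oxidation, acyl-CoA hydrolysis, desaturation, fatty acid carriage, phospholipases A2, glycerolipid assembly, lipoprotein lipase, sterol synthesis and binding, carboxylesterases, hydroxysteroid dehydrogenases and apolipoproteins. RNA was sequenced from 3 groups of sorted cells of WT C57BL/6J mice, with 3 libraries each. Mesenchymal stem cells of the bone marrow (BM-MSCs) and skeletal stem cells of the periosteum (P-SSCs) were taken at steady state (day 0), and graft P-SSCs came from the periosteum of a whole femur 3 days after it was implanted under the skin of a recipient mouse. The study sorted both cell types as CD51+CD200+ cells, a pair of surface markers of skeletal stromal cells, and where it spells out the gate for other assays, cells with the blood markers CD45 and Ter119 or the endothelial marker CD31 were removed. The libraries were made from few sorted cells, in some replicates with the RNA of more than 1 mouse combined, and each replicate held distinct mice. Marrow was digested for a shorter time than periosteum, so tissue and preparation cannot be told apart between BM-MSCs and P-SSCs.

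Stromal cells of the marrow can become bone, cartilage or fat cells, and an adipocyte that fills its droplet takes up fatty acids that lipoprotein lipase frees from circulating lipoproteins, carries them on binding proteins, activates them with coenzyme A and joins them to glycerol. Cells that do not store fat use the same enzymes to build and remodel membranes, to burn fatty acids in mitochondria and to release arachidonic acid, the source of prostaglandins. The members were therefore followed in the order uptake, carriage, activation, phospholipid release and remodelling, triglyceride assembly, oxidation and sterols, with the question of whether the marrow cells carried more of the fat-storage genes than the periosteal cells.

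Levels are FPKM, fragments scaled for gene length and for the total of the library, and differences are log2 fold changes on the log2(FPKM + 1) scale, tested with limma in 1 fit of the 9 libraries. Genes with an adjusted p under 0.05 (Benjamini-Hochberg) over all 1948 genes that reached 1 FPKM in at least 3 libraries were called. Library totals recovered from the values ranged from 16890241 to 21315438 fragments. Of the markers written down for the cell types, *Gas6*, a vitamin K-dependent growth factor, was the 1 of 17 marrow stromal genes in the table. It had 284 to 441 FPKM in BM-MSCs but 10.8, 9.13 and 432 in the P-SSC libraries, so P-SSC replicate 3 was at the marrow level. *Cilp*, a cartilage matrix gene of the periosteal list, separated the groups in all libraries, with 263 to 381 FPKM in P-SSCs and at most 0.0397 in BM-MSCs. P-SSC replicate 3 was more than 3-fold above both other P-SSC libraries for 344 of the 1948 genes (17.7%), against 0.257% to 3.23% for each other library within its own group. Of the members, 5 behaved in this way, and where leaving that library out changed one of their calls, both values are given. In the other direction, P-SSC replicate 2 was more than 3-fold below both other P-SSC libraries for 180 genes (9.24%) and 3 members. BM-MSC replicate 2 was so within its group for 121 genes (6.21%). Markers of other cells differed between the groups. *Hba-a2*, a haemoglobin chain, had 618 to 2200 FPKM in BM-MSCs and at most 20.2 in the other libraries. *Mpo*, of the neutrophil list, had 292 FPKM in BM-MSC replicate 1 and 0 in BM-MSC replicates 2 and 3. It had at most 1.59 FPKM in the other groups.

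Of the 41 members, 21 passed the filter, in 12 of the 14 functional classes. The other 20 were low. Of these, 10 had no fragment in any library and 8 others had group means under 1 FPKM, with a highest single value of 2.30 FPKM. *Pla2g4c*, a calcium-independent phospholipase A2, and *Acsl6*, an acyl-CoA synthetase best known from brain and red cell precursors, reached group means of 1.59 and 1.43 FPKM in BM-MSCs through 2 libraries and 1 library. The 1 apolipoprotein gene, *Apol7b*, was read in graft P-SSCs alone, at 0.0421 to 0.102 FPKM. A filter that asks for expression in some libraries lets through genes that are high in 1 group, so the counts that follow describe the 21 and not the family.

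Between P-SSCs and BM-MSCs, 2 of the 21 members rose (9.52%) and 4 fell (19.0%), while 9.8% of all genes tested rose and 14.4% fell. Between graft P-SSCs and P-SSCs, 4 members rose and 2 fell, against 22.6% of all genes higher and 11.5% lower. Between graft P-SSCs and BM-MSCs, again 4 rose and 2 fell, against 25.7% and 16.2%. The median log2 fold change of the members was -0.21, 0.44 and 0.30 in these comparisons, beside -0.06, 0.26 and 0.28 over all genes. The members' shares were near those of all genes, so the values that follow concern single members. Rescaling the libraries by the median of ratios made the split 3 higher and 4 lower in graft P-SSCs against P-SSCs, and quantile normalization made it 4 and 4. Over all genes the split in that comparison went from 441 higher and 224 lower to 312 and 302 with the median of ratios, and to 312 and 355 with quantile normalization. Against BM-MSCs it went from 501 and 315 to 388 and 364, and to 387 and 405. The comparisons share groups, so they are not independent of each other.

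**Figure D1:**
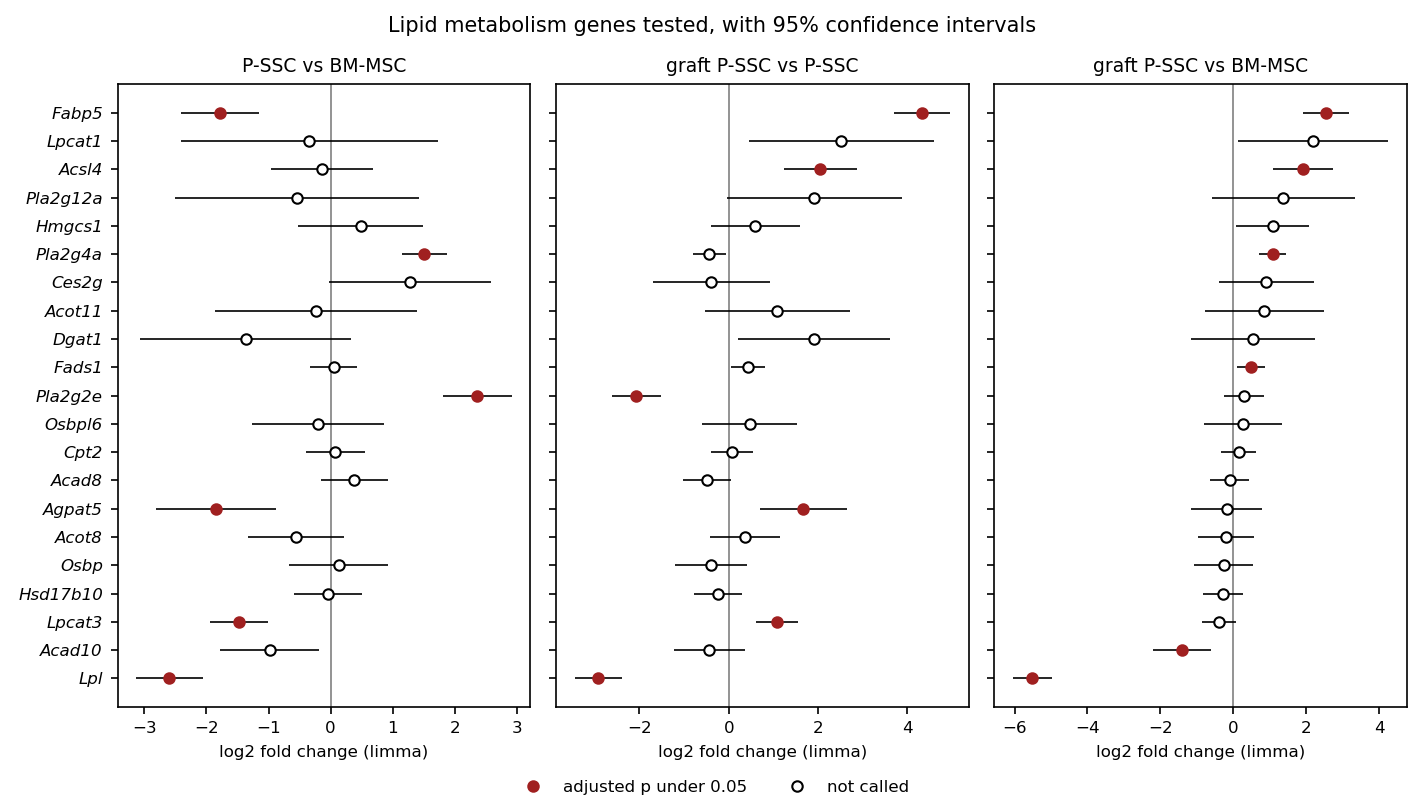
The x axes give the log2 fold change of each of the 21 members tested (rows), with its 95% confidence interval from limma as a horizontal line, in the 3 comparisons. Filled points passed the adjusted p of 0.05, 6 in each panel, and *Lpl* has the lowest value in every panel.

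*Lpl* encodes lipoprotein lipase, the enzyme that releases fatty acids from triglyceride-rich lipoproteins, and it lies on chromosome 8 from 68880491 to 68907448 (GRCm38). It had 939, 589.7 and 705 FPKM in the BM-MSC libraries, 164, 110.2 and 95.8 in P-SSCs, and 13.4, 16.9 and 15.0 in graft P-SSCs. All BM-MSC libraries were above all P-SSC libraries, and all of these above all grafts, with no overlap anywhere. The group means were 745 ± 178, 123 ± 35.9 and 15.1 ± 1.76 FPKM (SD, n = 3 each), a 6.04-fold step from marrow to periosteum and an 8.18-fold step from periosteum to graft. The values rest on 29388 to 42005 fragments per library in BM-MSCs and on 626 to 953 in grafts, so counting error is small beside the spread. On the log2 scale *Lpl* fell by 2.596 from BM-MSCs to P-SSCs (standard error 0.24, adjusted p = 3.33e-05 from limma) and by 2.92 from P-SSCs to grafts (standard error 0.24, adjusted p = 2.54e-05 from limma). Between grafts and BM-MSCs the log2 fold change was -5.51 (95% confidence interval -6.05 to -4.98, adjusted p = 2.57e-07 from limma). Without P-SSC replicate 3 the values for P-SSCs were -2.43 against BM-MSCs and -3.08 for grafts against P-SSCs, and each remained called.

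*Lpl* was also the member that set the total. It made up 54.7% to 64.1% of the summed FPKM of the 21 members in BM-MSCs, 18.6% to 27.1% in P-SSCs and 2.19% to 2.82% in grafts. Without it the members summed to 480 to 526 FPKM in BM-MSCs, 421 to 441 in P-SSCs and 583 to 598 in grafts, so the order of marrow and graft turned round. Over all genes tested the median log2 fold change of grafts against BM-MSCs was positive too, at 0.28. Rescaling moved the split over all genes in that comparison, so the turn was not read as a trait of the members. Among the 1948 genes of a library *Lpl* ranked between 16 and 26 in BM-MSCs, between 111 and 174 in P-SSCs, and between 729 and 838 in grafts. In bulk RNA, fewer cells that express a gene and less RNA per cell cannot be told apart. Macrophages can also express *Lpl*, and the 5 macrophage and monocyte genes of 19 that the table holds summed to 150 to 610 FPKM in BM-MSCs, 14.5 to 72.3 in P-SSCs and 32.8 to 92.3 in grafts. Most of these sums was *Lyz2* (lysozyme), with 143, 539.5 and 608 FPKM in the BM-MSC libraries. BM-MSC replicate 1, the library with the most *Lpl*, had the least *Lyz2* and *Ptprc* of its group but the most *Adgre1*, *Csf1r* and *Mrc1*. *Adgre1* and *Ptprc* were at 0 in all P-SSC libraries and at most 3.17 and 1.35 FPKM in BM-MSCs, and *Csf1r* and *Mrc1* were at most 2.68 and 0.573 FPKM in BM-MSCs. The part of macrophage RNA in the *Lpl* difference was not tested.

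**Figure D2:**
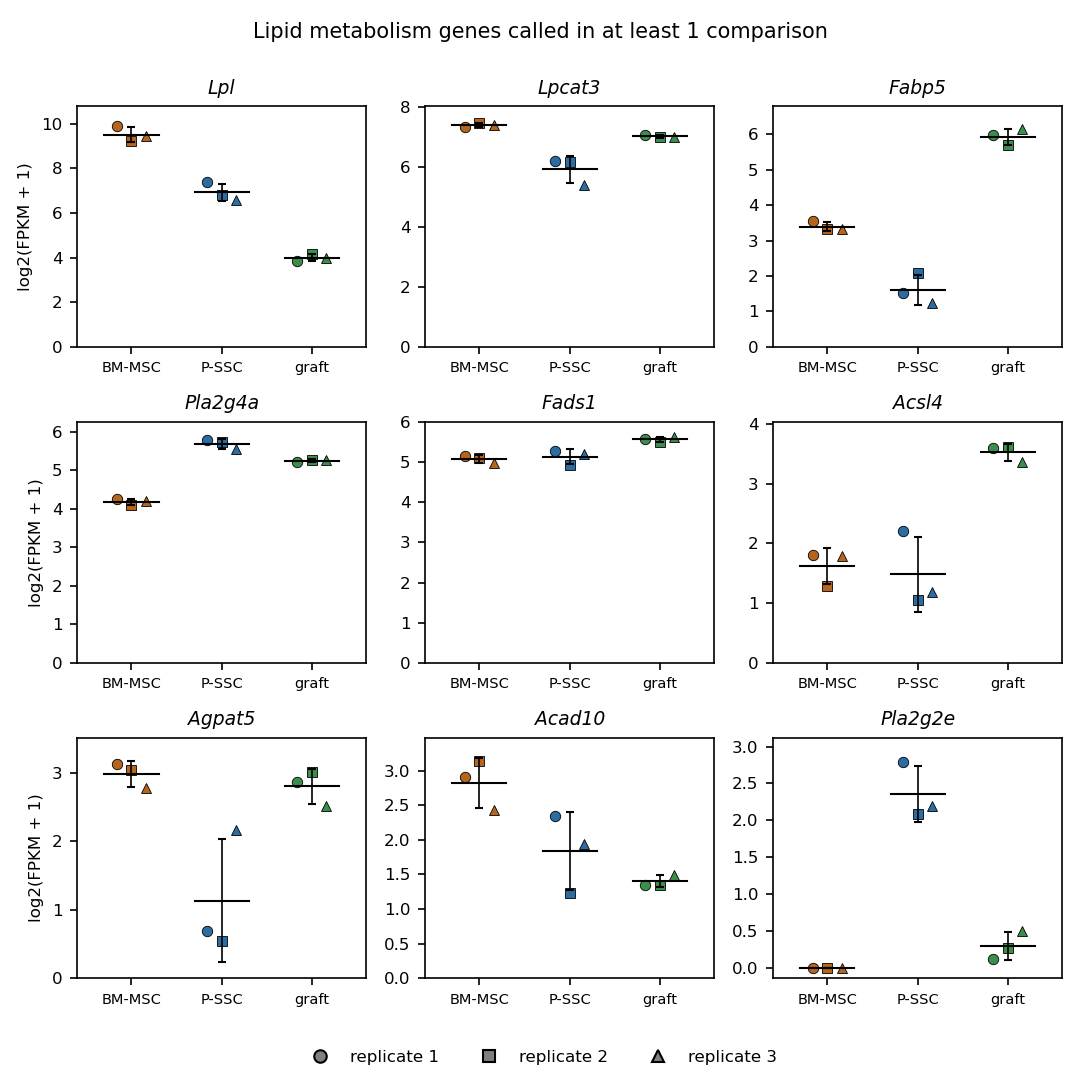
Each panel shows 1 of the 9 members called in at least 1 comparison, with log2(FPKM + 1) on the y axis, the 3 groups on the x axis, a point per library shaped by replicate, a line at the group mean and a bar for ± 1 SD (n = 3). *Lpl* steps down from marrow to periosteum to graft without overlap, *Fabp5* and *Acsl4* are highest in the grafts, and *Lpcat3* and *Agpat5* are lowest in steady-state P-SSCs.

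Of the genes that act on the lipase itself, the fixed lists hold *Angptl4* and *Lmf1*. *Angptl4* encodes a secreted inhibitor of lipoprotein lipase. It had 380, 312 and 364 FPKM in BM-MSCs, 41.2, 45.9 and 139 in P-SSCs, and 763, 854 and 894 in grafts. Its lowest group was thus the steady-state periosteum and its highest the graft, with no overlap between groups. It fell by 2.43 on the log2 scale from BM-MSCs to P-SSCs and was 3.68 higher in grafts than in P-SSCs (adjusted p = 0.00116 and 0.00011 from limma). Grafts also exceeded BM-MSCs, by 1.25 (adjusted p = 0.0268 from limma), a call lost without any single BM-MSC or graft library, with adjusted p from 0.0579 to 0.0861, and without the filter, at 0.0647. In grafts the inhibitor was therefore at 55.5-fold the FPKM of the lipase, and in BM-MSCs at 0.473-fold. *Lmf1*, a factor needed for lipase folding, had 32.8 to 57.2 FPKM in BM-MSCs, 17.7 to 35.1 in P-SSCs and 31.1 to 33.7 in grafts and was called in no comparison.

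**Figure D3:**
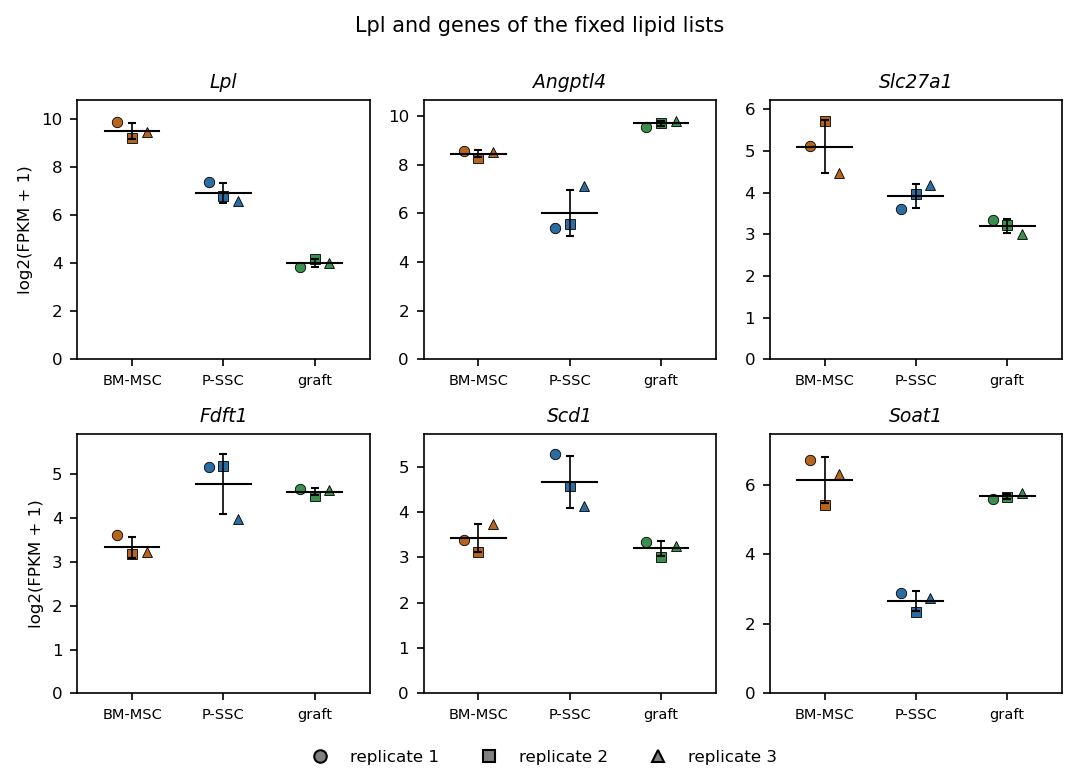
Panels show *Lpl* beside *Angptl4*, *Slc27a1*, *Fdft1*, *Scd1* and *Soat1*, genes of the fixed lipid lists, with log2(FPKM + 1) on the y axis, a point per library, a line at the group mean and a bar for ± 1 SD (n = 3). *Angptl4* is highest in the grafts, where *Lpl* is lowest, *Fdft1* is lowest in BM-MSCs and *Soat1* is lowest in P-SSCs.

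*Fabp5*, a cytosolic carrier of fatty acids on chromosome 3 from 10012548 to 10016607, moved the other way from *Lpl* in the grafts. It had 10.7, 8.96 and 8.93 FPKM in BM-MSCs, 1.85, 3.23 and 1.35 in P-SSCs, and 61.9, 50.6 and 69.3 in grafts. The groups did not overlap, and the graft libraries stood far above both others. Its mean of 60.6 ± 9.42 FPKM in grafts was 28.3-fold that of P-SSCs (2.14 ± 0.974) and 6.37-fold that of BM-MSCs (9.51 ± 0.988; SD, n = 3 each). The log2 fold change was -1.78 for P-SSCs against BM-MSCs, 4.33 for grafts against P-SSCs and 2.54 for grafts against BM-MSCs (standard error 0.28 each, adjusted p = 0.00111, 5.98e-06 and 9.54e-05 from limma). *Csf1r*, the receptor of macrophage growth factor, had 0.248 to 0.835 FPKM in P-SSCs and 5.57 to 6.31 in grafts (log2 fold change 2.23). *Adgre1*, a surface protein of macrophages, was at 0 in each P-SSC library and at 2.75, 0.907 and 2.22 FPKM in grafts (log2 fold change 1.51). Both passed the filter through libraries of the groups where they were high, *Csf1r* through its grafts and *Adgre1* through grafts and BM-MSCs, so their values are a description, with no test. *Lyz2*, the other macrophage gene that passed, was not called (log2 fold change 0.32, adjusted p = 0.759 from limma). The part of macrophage RNA in the *Fabp5* difference was not tested. The other carrier, *Fabp6*, an ileal bile acid binding protein, had no fragment.

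Activation of fatty acids was represented by *Acsl4*, an acyl-CoA synthetase that prefers arachidonic acid. It had 2.48, 1.43 and 2.45 FPKM in BM-MSCs, 3.60, 1.08 and 1.28 in P-SSCs, and 11.1, 11.3 and 9.33 in grafts. Every graft library was above every other library, and the steady-state groups overlapped. The log2 fold change was 2.05 for grafts against P-SSCs and 1.91 against BM-MSCs (standard error 0.36, adjusted p = 0.00217 and 0.00276 from limma). Between P-SSCs and BM-MSCs it was -0.14 (95% confidence interval -0.96 to 0.68).

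Phospholipases A2, which cut a fatty acid from membrane phospholipids, were the largest class, with 10 members of which 3 passed the filter. *Pla2g4a*, the cytosolic enzyme that releases arachidonic acid, was the member higher in both periosteal groups than in marrow. The promoters of this gene and of *Pla2g2e*, a secreted phospholipase A2 read almost only in steady-state P-SSCs, are shown because they were the members counted as higher in P-SSCs. *Pla2g2e* was chosen after its values were seen. The sequences are those of RefSeq for GRCm38.p6, each of the 250 bases before an annotated start, 5′ to 3′ on the strand of the gene. *Lpl* had no entry, and 16 of the 21 members tested had one. They are in lower case throughout, because none of 4 motifs searched on both strands was found in them.
Pla2g4a, first start, chr1:149961291-149961540, minus strand: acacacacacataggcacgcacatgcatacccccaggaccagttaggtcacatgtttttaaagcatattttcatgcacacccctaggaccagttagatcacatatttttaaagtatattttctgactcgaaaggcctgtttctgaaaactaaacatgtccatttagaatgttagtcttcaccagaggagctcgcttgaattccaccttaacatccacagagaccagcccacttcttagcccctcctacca
Pla2g4a, second start, chr1:149922440-149922689, minus strand: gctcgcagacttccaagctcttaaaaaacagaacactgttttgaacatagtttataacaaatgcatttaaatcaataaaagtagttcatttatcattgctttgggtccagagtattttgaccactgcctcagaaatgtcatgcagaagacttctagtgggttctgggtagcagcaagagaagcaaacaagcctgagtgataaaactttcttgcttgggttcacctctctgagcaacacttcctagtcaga
Pla2g2e, chr4:138877692-138877941, plus strand: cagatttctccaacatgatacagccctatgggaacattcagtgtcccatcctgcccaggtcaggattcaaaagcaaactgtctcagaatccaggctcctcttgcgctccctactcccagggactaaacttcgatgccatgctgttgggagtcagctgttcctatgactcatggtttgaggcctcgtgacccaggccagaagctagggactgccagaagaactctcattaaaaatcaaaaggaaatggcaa

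The motifs were direct repeat 1 and direct repeat 4 of AGGTCA, bound by PPAR and LXR receptors with RXR, the sterol regulatory element TCACNCCAC and the C/EBP palindrome TTGCGCAA. Over windows that run from 250 bases before to 50 after the start, these exact letters were present in 0.0396%, 0.0152%, 1.24% and 0.183% of 32851 promoters. Among the 19 promoters of the members tested, TCACNCCAC was present in those of *Hmgcs1* and *Pla2g12a*, and the others in none. The GC content of the 3 sequences printed was 43.2%, 39.6% and 49.6%, below the median of 52.4% over all promoters.

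*Pla2g4a*, on chromosome 1 from 149829618 to 149961290, had 18.1, 16.04 and 17.2 FPKM in BM-MSCs, 54.3, 52.2 and 45.6 in P-SSCs, and 36.3, 37.5 and 37.6 in grafts. The groups did not overlap, with grafts between marrow and steady-state periosteum. The log2 fold change was 1.51 for P-SSCs and 1.08 for grafts against BM-MSCs (standard error 0.16, adjusted p = 9.98e-05 and 0.000728 from limma). Between grafts and P-SSCs it was -0.43 and not called (adjusted p = 0.0689 from limma), but it was called in 6 of 19 other settings, among them the median of ratios (-0.75, adjusted p = 0.0172) and quantile normalization (-0.82, adjusted p = 0.0097), both with limma. *Pla2g2e* had 3.26 to 5.94 FPKM in P-SSCs and 0.084 to 0.414 in grafts, and no fragment in BM-MSCs. Against the floor of 3 fragments over the BM-MSC group, the P-SSC mean of 4.27 ± 1.46 FPKM (SD, n = 3) was at least 51.6-fold higher. It passed the filter through its P-SSC libraries alone and so had to be higher there, and its log2 fold changes of 2.36 for P-SSCs against BM-MSCs and -2.07 for grafts against P-SSCs are given as a description, with no test, although both stand in the counts of calls. Grafts held 1, 3 and 5 fragments of it and P-SSCs 39 to 79. *Pla2g12a*, a further secreted enzyme, is described with *Dgat1* and *Lpcat1*.

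Phospholipid remodelling and glycerolipid assembly had 4 members, all tested. *Lpcat3* adds polyunsaturated fatty acids to lysophospholipids. It had 161, 175 and 165 FPKM in BM-MSCs, 72.1, 70.8 and 41.4 in P-SSCs, and 132, 125 and 126 in grafts. The P-SSC libraries were the lowest, and no groups overlapped. Between grafts and BM-MSCs the log2 fold change was -0.38 and not called (adjusted p = 0.166 from limma), although it was called in 2 of 19 other settings. The log2 fold change was -1.47 for P-SSCs against BM-MSCs and 1.09 for grafts against P-SSCs (standard error 0.21, adjusted p = 0.000603 and 0.0033 from limma), and the second was 0.77 with an adjusted p of 0.0554 from limma after scaling by the median of ratios. *Agpat5*, an acyltransferase of the mitochondrion that makes phosphatidic acid, the common precursor of glycerolipids, had 7.73, 7.25 and 5.83 FPKM in BM-MSCs, 0.617, 0.463 and 3.48 in P-SSCs, and 6.32, 7.03 and 4.74 in grafts. Its P-SSC libraries were again the lowest without overlap, although replicate 3 was 5.65-fold above replicate 1. The log2 fold change was -1.84 for P-SSCs against BM-MSCs (adjusted p = 0.0115 from limma) and 1.66 for grafts against P-SSCs (adjusted p = 0.0155 from limma), and -2.36 and 2.18 without P-SSC replicate 3. The second call was lost when P-SSC replicate 1 or graft replicate 1 or 2 was left out, with adjusted p from 0.057 to 0.0639, and the first when only the libraries of these groups were fitted, at 0.0533.

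For *Dgat1*, which makes triglycerides in the last step of assembly, and *Lpcat1*, which makes saturated phosphatidylcholine, the P-SSC libraries disagreed. These genes, *Pla2g12a* and *Acot11* were chosen after their values were seen. P-SSC replicate 3 was the highest P-SSC library for all of them, so leaving it out lowers their P-SSC means and narrows their spread. The adjusted p of the fits without it therefore describe how far that library stood apart and are no independent test. *Dgat1* had 2.56, 5.96 and 40.0 FPKM in P-SSC replicates 1 to 3, against 46.1, 17.8 and 18.7 in BM-MSCs and 34.4, 39.3 and 36.5 in grafts. *Lpcat1* had 2.74, 0.357 and 30.3 FPKM in P-SSCs, 6.14, 3.40 and 9.25 in BM-MSCs and 29.6, 29.6 and 31.2 in grafts. P-SSC replicate 3 was at the level of the grafts for both, and the other P-SSC libraries were below every graft and BM-MSC library. With all libraries neither gene was called, with a log2 fold change for grafts against P-SSCs of 1.91 for *Dgat1* and 2.52 for *Lpcat1* (adjusted p = 0.0802 and 0.0603 from limma). Without P-SSC replicate 3 these were 2.92 and 3.79 (adjusted p = 0.000337 and 0.000138 from limma), and both genes were called higher in grafts. *Pla2g12a* had 0.609, 0.996 and 18.1 FPKM in P-SSCs, 2.81, 4.85 and 7.49 in BM-MSCs and 21.05, 19.4 and 6.23 in grafts, so its P-SSC replicate 3 lay within the range of the grafts and its other P-SSC libraries below all others. *Acot11*, a thioesterase that frees fatty acids from coenzyme A, had 2.18, 0 and 10.2 FPKM in P-SSCs, 1.86, 3.79 and 3.27 in BM-MSCs and 7.05, 4.35 and 6.91 in grafts. Here P-SSC replicate 3 was above every graft library, and P-SSC replicate 1 lay within the range of BM-MSCs. For grafts against P-SSCs the log2 fold changes of *Pla2g12a* and *Acot11* were 1.91 and 1.08 with all libraries (adjusted p = 0.123 and 0.283 from limma) and 3.05 and 1.97 without P-SSC replicate 3 (adjusted p = 0.00103 and 0.00838 from limma). Over the other settings the value of *Acot11* went down to 0.22.

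For P-SSCs against BM-MSCs the log2 fold changes of *Dgat1*, *Lpcat1* and *Pla2g12a* were -1.37, -0.34 and -0.54 with all libraries, and none was called (adjusted p = 0.242, 0.848 and 0.721 from limma). Without P-SSC replicate 3 they were -2.38, -1.61 and -1.68 and all 3 were called (adjusted p = 0.00204, 0.0264 and 0.0355 from limma), while in 1 other setting each *Lpcat1* and *Pla2g12a* turned to 0.66 and 0.10. Without P-SSC replicate 1 *Dgat1* was at -0.62 and not called (adjusted p = 0.59 from limma). For grafts against BM-MSCs, *Lpcat1* and *Pla2g12a* had log2 fold changes of 2.18 and 1.37, which were not called with all libraries (adjusted p = 0.0826 and 0.229 from limma) but were called without P-SSC replicate 3 (adjusted p = 0.00171 and 0.0325 from limma). Those of *Dgat1* and *Acot11* were 0.54 and 0.85, called in neither fit. Leaving that library out raised the members called from 6 to 12 in grafts against P-SSCs, from 6 to 9 in P-SSCs against BM-MSCs and from 6 to 10 in grafts against BM-MSCs. The calls over all genes rose with them, from 665 to 892, from 472 to 593 and from 816 to 1038.

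**Figure D4:**
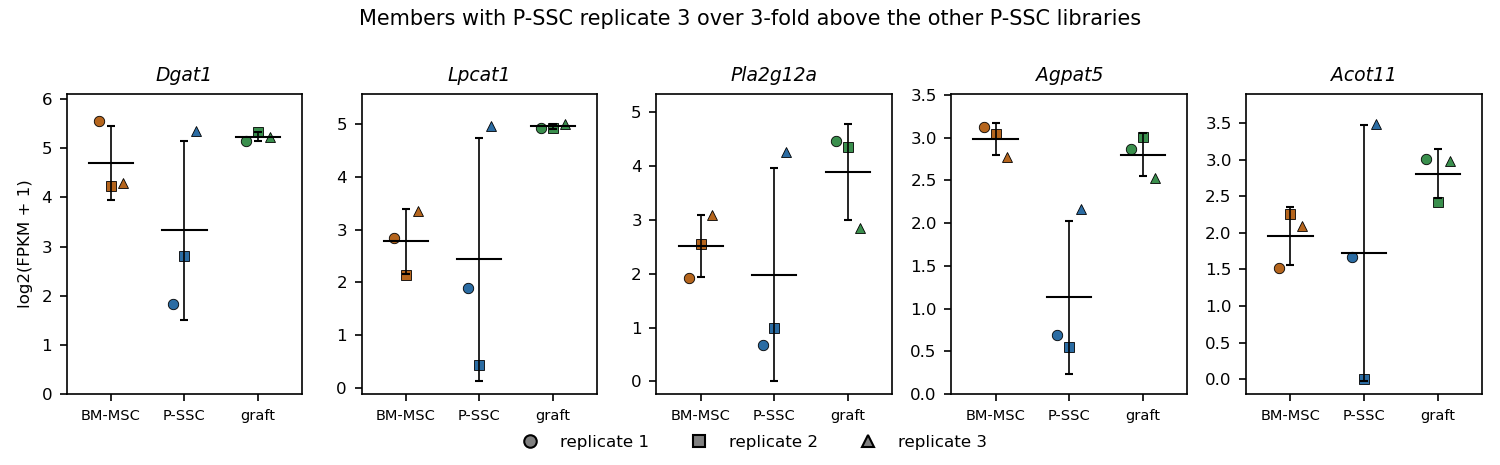
Panels show the 5 members for which P-SSC replicate 3 (blue triangle) was more than 3-fold above both other P-SSC libraries, with log2(FPKM + 1) on the y axis, a point per library, a line at the group mean and a bar for ± 1 SD (n = 3). For *Dgat1*, *Lpcat1* and *Pla2g12a* the triangle lies within or near the range of the graft libraries and apart from the blue circle and square.

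Of the 3 oxidation members tested, 1 was called, *Acad10* in grafts against BM-MSCs. *Cpt2*, the inner-membrane carnitine transferase that admits fatty acids to the mitochondrion, had 48.5 to 80.1 FPKM in BM-MSCs, 58.4 to 81.7 in P-SSCs and 65.6 to 73.2 in grafts. Its log2 fold changes lay between 0.07 and 0.15, and the 95% confidence interval for P-SSCs against BM-MSCs was -0.40 to 0.55. *Acad8*, an acyl-CoA dehydrogenase of valine breakdown, had 18.3 to 36.9 FPKM over all libraries, and it was called lower in grafts than in P-SSCs only after the median of ratios and quantile normalization (adjusted p = 0.0355 and 0.0187 from limma). *Acad10*, a less studied acyl-CoA dehydrogenase, had 6.46, 7.77 and 4.38 FPKM in BM-MSCs, 4.10, 1.35 and 2.84 in P-SSCs, and 1.55, 1.56 and 1.83 in grafts. BM-MSC libraries were above all others, and P-SSCs overlapped with grafts. It fell by 1.42 on the log2 scale in grafts against BM-MSCs (standard error 0.35, adjusted p = 0.0107 from limma). Of 21 further oxidation genes on a fixed list, 4 were tested. *Acaa2*, the thiolase of the mitochondrial spiral, was higher in P-SSCs and in grafts than in BM-MSCs by 1.36 and 1.19 (adjusted p = 0.000633 and 0.00112 from limma). *Crat*, which buffers acetyl groups on carnitine, had log2 fold changes in grafts of -1.06 against P-SSCs and -0.69 against BM-MSCs (adjusted p = 0.0013 and 0.0103 from limma).

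*Fads1*, the delta-5 desaturase that makes arachidonic acid, had 34.6, 33.7 and 30.5 FPKM in BM-MSCs, 37.9, 29.3 and 35.8 in P-SSCs, and 47.2, 44.4 and 48.3 in grafts. Each graft library was above all others. The log2 fold change of grafts against BM-MSCs was 0.49 (adjusted p = 0.0416 from limma), but the call was lost in 11 of 19 settings, with adjusted p from 0.057 to 0.43, and the value was 0.20 after quantile normalization. Among members that were called in no comparison, *Hsd17b10*, a mitochondrial dehydrogenase, had 55.4 to 110.3 FPKM, *Acot8*, a peroxisomal thioesterase, 5.31 to 16.1, and *Ces2g*, a carboxylesterase, 2.04 to 23.7. The sterol transfer proteins *Osbp* and *Osbpl6* were at 3.47 FPKM or below. *Hsd17b10* in grafts against P-SSCs was -0.24 on the log2 scale with all libraries (adjusted p = 0.484 from limma). Without P-SSC replicate 3 it was called lower, at -0.55 (adjusted p = 0.00945 from limma). Among BM-MSCs *Ces2g* was the most variable of the members called in no comparison, with 2.04, 7.61 and 21.3 FPKM. Against BM-MSCs its log2 fold change was 1.28 in P-SSCs and 0.90 in grafts with all libraries (adjusted p = 0.153 and 0.235 from limma). Without BM-MSC replicate 3 it was called higher in both (1.99 and 1.60, adjusted p = 0.0111 and 0.02 from limma). Without BM-MSC replicate 1 the P-SSC value was 0.55 (adjusted p = 0.383 from limma). The lowest graft value over the other settings was 0.17.

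Of sterol synthesis the members held *Hmgcs1*, which makes HMG-CoA. It had 4.22 to 13.5 FPKM in BM-MSCs, 8.19 to 23.0 in P-SSCs and 18.0 to 20.3 in grafts, and its log2 fold change of 1.08 between grafts and BM-MSCs was not called (adjusted p = 0.0789 from limma). Of 27 further genes of sterol synthesis and control, 4 were tested, of which 1 rose and 1 fell in P-SSCs against BM-MSCs, 1 rose in grafts against P-SSCs, and 2 rose and 1 fell in grafts against BM-MSCs. The last 3 were *Fdft1*, *Stard4*, a carrier of cholesterol between membranes (1.34, adjusted p = 0.0264 from limma), and *Pmvk*, phosphomevalonate kinase (-1.04, adjusted p = 0.0412 from limma). The calls of *Stard4* and *Pmvk* were lost in 8 and 10 of 19 settings, with adjusted p up to 0.104 and 0.127. *Fdft1*, squalene synthase, had 11.2, 8.04 and 8.38 FPKM in BM-MSCs, 34.9, 35.4 and 14.9 in P-SSCs, and 24.4, 21.8 and 24.1 in grafts. Both periosteal groups were above marrow without overlap, by 1.44 and 1.27 on the log2 scale (adjusted p = 0.00925 and 0.0123 from limma), and the second call was lost after quantile normalization (0.91, adjusted p = 0.0964 from limma). *Soat1*, which esterifies cholesterol for storage, had 103, 41.3 and 78.1 FPKM in BM-MSCs, 6.42, 4.07 and 5.76 in P-SSCs, and 46.8, 49.5 and 52.8 in grafts. Steady-state P-SSCs were far below both other groups, which overlapped, with a log2 fold change of -3.47 against BM-MSCs and of 3.00 for grafts against P-SSCs (adjusted p = 3.26e-05 and 0.000121 from limma).

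For the adipogenic bias of marrow cells the table holds few defining genes. *Pparg*, *Cebpa*, *Adipoq* and *Lepr* and the 8 markers of mature adipocytes were not analysed here. Of 20 regulators of adipogenesis 2 passed the filter. *Zfp423*, a factor of preadipocyte commitment, had 7.98, 1.31 and 15.5 FPKM in BM-MSCs, 35.8, 27.1 and 47.8 in P-SSCs, and 10.7, 9.29 and 8.36 in grafts. P-SSCs were the highest group without overlap, 2.40 above BM-MSCs on the log2 scale (adjusted p = 0.0155 from limma). This call was lost when only these groups were fitted (adjusted p = 0.056 from limma), and the value was 1.60 without BM-MSC replicate 2, where it was called. The call for the fall in grafts (-1.83, adjusted p = 0.0403 from limma) was lost in 9 of 19 settings, with adjusted p up to 0.106. *Dlk1*, an inhibitor of adipocyte formation, had 4.32 to 10.2 FPKM in grafts and at most 1.57 elsewhere. It passed the filter only with its graft libraries, so its log2 fold changes in grafts of 2.002 against P-SSCs and 2.41 against BM-MSCs are a description, with no test. Of 26 genes of the adipocyte programme, 5 were tested, and in P-SSCs against BM-MSCs 2 rose and 2 fell. *Slc27a1*, a fatty acid transporter, fell with *Lpl* from 21.1 to 51.9 FPKM in BM-MSCs to 11.1 to 17.2 in P-SSCs (log2 fold change -1.19, adjusted p = 0.0239 from limma), while *Scd1*, the stearoyl-CoA desaturase, rose from 7.69 to 12.3 FPKM to 16.6 to 37.7 (1.24, adjusted p = 0.0181 from limma). Each of these calls was lost in 4 of 19 settings. In grafts *Slc27a1* was called lower than in BM-MSCs (-1.91, adjusted p = 0.00139 from limma) and not called against P-SSCs (-0.72, adjusted p = 0.118 from limma). There *Scd1* was at 7.09 to 9.14 FPKM, called lower than in P-SSCs (-1.46, adjusted p = 0.00691 from limma) in all 19 other settings too, and not called against BM-MSCs (-0.21, adjusted p = 0.607 from limma). *Cav1*, the coat protein of caveolae, was at most 9.79 FPKM in BM-MSCs, 135 to 262 in P-SSCs and 659 to 753 in grafts, and was called higher in both than in BM-MSCs (adjusted p = 2.73e-05 and 3.48e-06 from limma). *Cd36*, a membrane receptor that takes up fatty acids, was the gene of the 5 not called in any comparison, with 0.0212 to 1.58 FPKM in BM-MSCs, 0.443 to 1.36 in P-SSCs and 0.901 to 2.62 in grafts (log2 fold change 0.38 for P-SSCs and 0.73 for grafts against BM-MSCs, adjusted p = 0.558 and 0.169 from limma). The second of these was called in 1 of 18 other settings.

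The members varied most among P-SSCs. The median coefficient of variation over members with a value was 27.9% in BM-MSCs, 45.5% in P-SSCs and 9.92% in grafts, beside 29.8%, 36.9% and 10.4% over all genes tested. The spread shared by the groups in the fit is therefore wider than that of the grafts alone. When grafts and BM-MSCs were fitted without the P-SSC libraries, 11 members were called in place of 6, with *Lpcat1*, *Hmgcs1*, *Pla2g12a*, *Acot11* and *Lpcat3* added, while the calls over all genes rose from 816 to 1068.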

How the data were processed

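RNA of CD51+CD200+ cells was measured in 9 libraries of 3 groups. The authors purified poly-A RNA, and the submitters' processing notes name CASAVA, fastp, STAR 2.6.1d, featureCounts 1.5.0-p3 and GRCm38. The annotation release was not given in the sources used here. What the authors deposited are FPKM, each gene's fragments scaled for its length and its library's total, with no further normalization. The length was the mean length of the gene's transcripts in GENCODE M21, cut to a whole number, for 3440 of 3609 genes above 0, and with it 94.5% of the 22678 values above 0 were whole fragments within 0.001. A mean length raises the FPKM of genes with short annotated transcripts. For the members tested, the longest transcript was 0.98 to 3.03 times the length used. The file was not a count table, so the main test used FPKM, and FPKM were compared between genes only per length.

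All tests used R 4.3.3 and limma 3.58.1 (lmFit and eBayes with a trend) on log2(FPKM + 1), which understates the change of low genes, for the 1948 of 8329 genes with at least 1 FPKM in at least 3 of 9 libraries. Adjustment was by Benjamini-Hochberg over these genes. The procedure was tested on simulated data. The members and gene lists were chosen with earlier results of these data known. Named were the members that passed the filter, with values in every library for those called with a group mean of at least 5 FPKM, members under the filter with a group mean of at least 1 FPKM, and up to 4 called genes of each list. *Pla2g2e*, *Dgat1*, *Lpcat1*, *Pla2g12a*, *Acot11*, *Hmgcs1*, *Csf1r*, *Adgre1*, *Mrc1*, *Ptprc*, *Mpo*, *Lmf1* and *Cd36* were described further after their values were seen.

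Alternatives changed the pseudocount (0.1), the filter (none, or 5 FPKM), the scaling, the groups fitted together, the trend and the replicate block, and left out each library. A voom fit of the recovered fragments was chosen after the data were seen. Libraries with the same replicate number did not deviate together: over 9 such pairs from different groups the correlation of deviations from the group means ranged from -0.43 to 0.13, against -0.31 to 0.38 over the 18 other pairs, so the numbers were not taken to pair the samples. A gene of the fixed lists is not reported here. Floors of 3 fragments cover counting error only.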

Additional observations from a re-analysis of the deposited data

How the results depend on the processing

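Each result was recomputed in up to 19 other settings. Of the 18 called differences of members, 14 stayed called in all settings tried. Among the 14 are both differences of *Pla2g2e*, which passed the filter through its P-SSC libraries alone. They are a description, and their stability is no test. Over all 18, 16 of 339 refits lost a call, all of them among the other 4 and 11 of them for *Fads1*, and none changed sign. Of the 45 that were not called, 20 were called in at least 1 setting. Leaving out each library in turn gave 6 to 9 members called in P-SSCs against BM-MSCs, 5 to 12 in grafts against P-SSCs and 5 to 10 in grafts against BM-MSCs, beside 6 each. Over all genes the same refits gave 399 to 593, 450 to 892 and 555 to 1038 calls, beside 472, 665 and 816. The highest counts, of members and of all genes, were those without P-SSC replicate 3. Fitting only the compared groups gave 5, 7 and 11 members and 324, 645 and 1068 genes, and in the last of these the P-SSC libraries no longer enter the spread. The replicate block gave 6, 7 and 5 members and 441, 621 and 755 genes, and changed the call of *Lpcat1* in grafts against P-SSCs (gained, adjusted p = 0.0356 from limma) and of *Fads1* in grafts against BM-MSCs (lost, 0.0632). The voom fit gave 6, 9 and 8 members and 454, 669 and 802 genes. With 3 libraries a group, *Dgat1*, *Pla2g12a* and *Acot11* were called in grafts against P-SSCs in no setting that kept P-SSC replicate 3, and *Lpcat1* under the block and the voom fit, and genes outside the table were not analysed here.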
